A study of Mus musculus with 7 samples.

Results

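The genes described here encode the MCM proteins of the DNA replication machinery, namely Mcm2, Mcm3, Mcm4, Mcm5, Mcm6, Mcm7, Mcm8 and Mcm10. They were taken by name and Ensembl identifier and make up 8 of the 15531 genes tested between the genotypes. RNA-seq compared 4 Df/+Bl6 lines of mouse embryonic fibroblasts (MEFs) with 3 +129/+Bl6 lines. The Df chromosome 4 comes from 129S5/SvEvBrd embryonic stem cells and lacks an engineered 4.3 Mb segment of band 4E2, and its homologue is an intact C57BL/6J chromosome. The +129/+Bl6 lines are F1 controls of the same strains with both copies intact, so every line carries one set of chromosomes from each strain. All were primary cells from the bodies of embryos at day 13.5, at passage 4, harvested 10 hours after confluency. The Df/+Bl6 embryos came from male chimeras, which carried Df and a second engineered chromosome, Dp, mated to C57BL/6J females. The parents of the control embryos are not clearly given in the sources used here. Whether cross or litter differed along with genotype is therefore not known and was not tested.

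The proteins made by Mcm2 to Mcm7 assemble into a ring, the MCM2-7 hexamer, which is loaded onto replication origins in G1 phase by the origin recognition complex, Cdc6 and Cdt1. In S phase the ring joins Cdc45 and the GINS complex to form the CMG helicase, which unwinds DNA ahead of the polymerases. The MCM genes are textbook targets of the E2F transcription factors, and their transcripts fall when fibroblasts leave the cell cycle.

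The values are the authors' mean normalized counts of each genotype, deposited for genes that passed their false discovery rate (FDR) of 0.05 in a DESeq test across the lines. Such genes are called listed here. One table, the combined table, holds counts that the authors describe as summed over both alleles. The others hold reads assigned to the 129S5 or to the C57BL/6J allele. The tables hold no value for a single line. No replicate SD, standard error or interval can therefore be given, sequencing depth is unknown for the lines, and no new test between lines was made. A gene that was tested but is not listed has no mean here, which does not show that it was unchanged. As a check of the labels, the interval on chromosome 4 between Rere and Ski, which brackets the deletion, held 41 tested genes. Of these, 26 were listed and all 26 were lower in Df/+Bl6, with a median log2 ratio of -1.14. In the 129S5 table, all 21 listed genes of the interval were lower, and 1 of them had a Df/+Bl6 mean of 0. The median log2 ratio over those with a finite ratio was -7.69. In the C57BL/6J table, whose chromosome is intact in both genotypes, 11 genes of the interval were listed and all 11 were lower too, with a median log2 ratio of -0.87.

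Letters of the kind that E2F factors recognise were found in the promoter windows of 5 of the 8 MCM genes, and 1 run of each is shown first because these genes are textbook E2F targets. The windows are RefSeq sequences of GRCm38.p6 that run from 250 bases before a transcript start to 50 bases after it. A window was given for 7 of the 8 genes, and Mcm4 is named only. The start used is not the outermost one of the gene for Mcm5, Mcm7 and Mcm8. Both strands were searched for TTTGGCGC, TTTCGCGC, TTTCCCGC and TTTGGCGG. Each run below has 30 bases, written 5′ to 3′ on the strand of the gene, and capitals mark matches that lie wholly within the run. The lower-case letters cgggaaa that open the Mcm3 run belong to a further match, GCGGGAAA, that begins before the run.
Mcm6: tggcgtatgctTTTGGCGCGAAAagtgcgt
Mcm5: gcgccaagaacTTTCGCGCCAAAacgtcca
Mcm7: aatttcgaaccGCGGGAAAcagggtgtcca
Mcm3: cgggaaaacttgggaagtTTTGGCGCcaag
Mcm8: gcagaagcgcgtcatagacGCGCCAAAaaa
The Mcm6 run lies at chr1:128359797-128359826 on the minus strand. It holds 2 matches on opposite strands that share letters, TTTGGCGC and, read on the other strand, TTTCGCGC. The Mcm5 run lies at chr8:75109345-75109374 on the plus strand. It holds the same pair of words with the strands exchanged, so the capitals of Mcm5 are the reverse complement of those of Mcm6. The Mcm7 run lies at chr5:138172030-138172059 on the minus strand and holds TTTCCCGC on the opposite strand. These 3 runs are before the start used, but the Mcm7 run lies inside the gene, which spans chr5:138164583-138172111. The runs of Mcm3, at chr1:20820263-20820292 on the minus strand, and of Mcm8, at chr2:132816161-132816190 on the plus strand, are in the first 50 transcribed bases.

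At least 1 of the 4 words occurred in the windows of 5 of the 7 genes, Mcm3, Mcm5, Mcm6, Mcm7 and Mcm8. Over all genes of the RefSeq table the share was 2.70%, or 730 of 27025 genes with a window. Mcm6 had 3 matches, Mcm3, Mcm5 and Mcm7 had 2 each and Mcm8 had 1. Mcm7 has 2 windows, and its matches were all in the window of start 1, while that of start 2 held none. Mcm2 and Mcm10 had none, which says only that these letters are absent from these windows. With the window cut at the start, 3 of the 7 genes held a word, Mcm5, Mcm6 and Mcm7, against 2.26% of all genes. The Mcm7 word counted here is before the start used but inside the gene. The short core GGCGC, which is part of the first word, was in 6 of the 7 windows but also in 39.4% of all genes. CCAAT and GGGCGG were added to the search after the data were seen. CCAAT, the letters bound by NF-Y, was in the windows of all 7 genes on one strand or the other, against 41.1% of all genes. GGGCGG, the GC box, was in 6 of the 7 windows and in 38.2% of all genes, and Mcm5 was the gene without it. A match is a description of the letters and was not tested as a binding site.

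**Figure D1:**
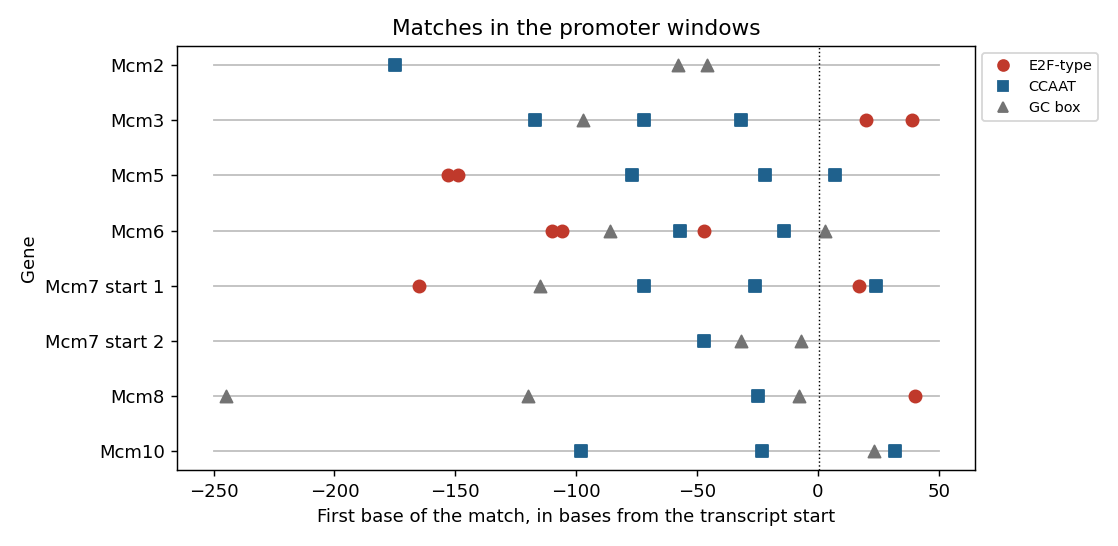
Matches in the promoter windows of the 7 genes with a window, by distance in bases from the transcript start (dotted line), one line per window and 2 for Mcm7. Red circles are E2F-type words, blue squares CCAAT and grey triangles GGGCGG, and each symbol stands at the first base of a match on either strand. E2F-type words are before the start in Mcm5 and Mcm6, on both sides of it at Mcm7 start 1, and after it in Mcm3 and Mcm8. Mcm7 start 2 has none.

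All 8 MCM genes were listed in the combined table, and all 8 were higher in Df/+Bl6 MEFs. Over all tested genes, 5.13% were listed as higher in Df/+Bl6 and 8.67% were listed in either direction. The folds ran from 1.62 for Mcm2 to 2.22 for Mcm8. None of the genes is on chromosome 4, which carries the deletion, and the 8 lie on 6 chromosomes. The set leaves out Mcm9, which was tested and not listed. The genes were chosen with earlier results of these data known, so the count of 8 of 8 is a description and not a test.

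The subunits of the hexamer were among the more abundant listed genes. Mcm2 (ENSMUSG00000002870, chr6:88883474-88898780), whose product also carries a histone-binding tail, had a mean normalized count of 13086 in the Df/+Bl6 lines. Its mean in the +129/+Bl6 lines was 8085, giving a log2 ratio of 0.69. This was the smallest difference of the 8 genes. Mcm3 (ENSMUSG00000041859, chr1:20802966-20820312), the subunit that docks on the origin-bound Cdc6 and origin recognition complex, had means of 11711 in Df/+Bl6 and 6830 in +129/+Bl6, a log2 ratio of 0.78. Mcm7 (ENSMUSG00000029730, chr5:138164583-138172111), the subunit that is ubiquitylated when the helicase is taken off DNA, had 11880 against 6953, a log2 ratio of 0.77. Mcm3 and Mcm7 thus sat close together in both levels and difference, although on different chromosomes.

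The remaining hexamer genes differed more between the genotypes. Mcm5 (ENSMUSG00000005410, chr8:75109468-75128439), which with Mcm2 forms the gate through which DNA enters the ring, had means of 12139 in Df/+Bl6 and 6471 in +129/+Bl6, a log2 ratio of 0.91. Mcm4 (ENSMUSG00000022673, chr16:15623897-15637400), a main substrate of the origin-firing kinase Cdc7, had 15777 against 8015, a log2 ratio of 0.98. It was the most abundant of the 8 in Df/+Bl6. Mcm6 (ENSMUSG00000026355, chr1:128331575-128359705), a subunit that binds the loading factor Cdt1, had 12758 against 6326, a log2 ratio of 1.01. Mcm6 went from the lowest mean of the 6 subunits in +129/+Bl6 to the third highest in Df/+Bl6.

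Over the 6 subunits the median log2 ratio was 0.84, with a range from 0.69 to 1.01. Among the 796 genes listed as higher the median was 0.80, so the hexamer genes were near the middle of that group. Mcm2 exceeded 32.5% of those 796 genes and Mcm6 exceeded 73.2%. The mean normalized counts of the 6 subunits summed to 77351 in Df/+Bl6 and to 42680 in +129/+Bl6, a fold of 1.81.

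Mcm10 and Mcm8 are not part of the ring, and their transcripts were much less abundant. Mcm10 (ENSMUSG00000026669, chr2:4990724-5012791) encodes a factor that activates the CMG helicase and is unrelated in fold to the ring subunits. It reached 2594 mean normalized counts in Df/+Bl6 against 1253 in +129/+Bl6, a log2 ratio of 1.05. Mcm8 (ENSMUSG00000027353, chr2:132816137-132844197) encodes a helicase that works with Mcm9 in recombination and meiosis. Its means were 635 and 286, and its log2 ratio of 1.15 was the largest of the 8. From the means as deposited, the order by difference was Mcm8, Mcm10, Mcm6, Mcm4, Mcm5, Mcm3, Mcm7 and Mcm2. The top of this order turned with a pseudocount of 100 normalized counts, where the log2 ratio was 1.00 for Mcm6, 0.99 for Mcm10, 0.97 for Mcm4 and 0.93 for Mcm8. Without values per line it cannot be said which neighbours in this order differ beyond the spread between lines.

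**Figure D2:**
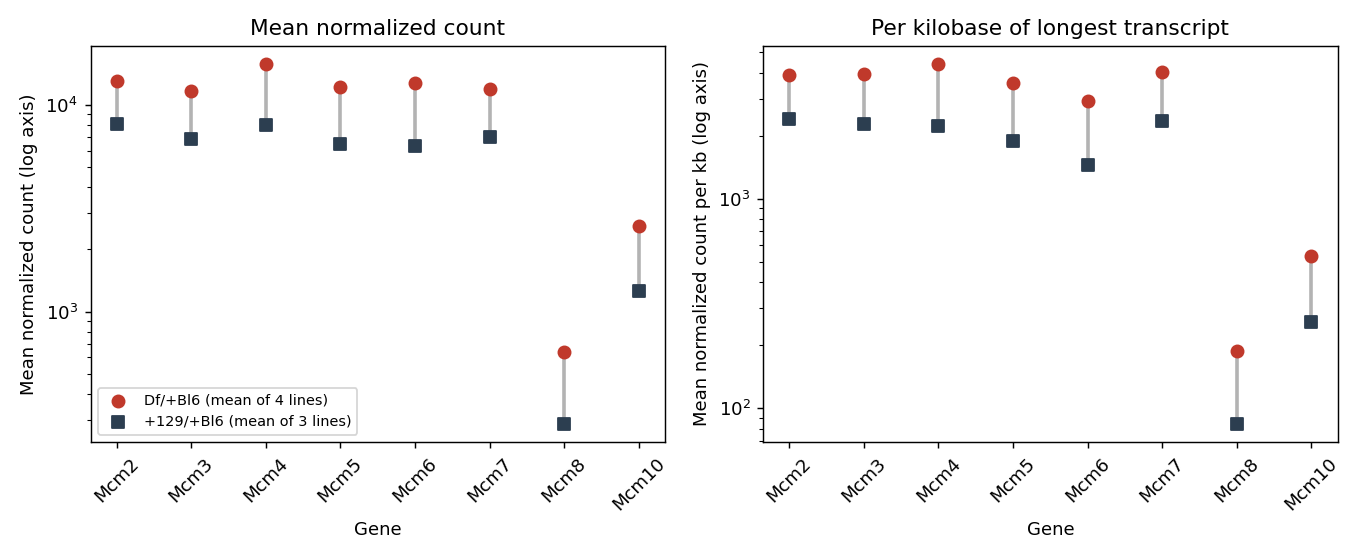
The authors' mean normalized count of each MCM gene in Df/+Bl6 (red circles, mean of 4 lines) and +129/+Bl6 (dark squares, mean of 3 lines), on log axes, as deposited at left and per kilobase of the longest transcript at right. No error bars are shown because the tables hold no value per line. The red circle is above the square for every gene, and Mcm8 and Mcm10 lie far below the 6 hexamer genes.

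Levels of different genes were compared per kilobase of the longest transcript in the GENCODE annotation of NCBI37. The authors counted on the longest transcript of a GRCm38 annotation, so the lengths used here may not be those of the transcripts counted. On this scale the 6 hexamer genes ran from 2929 counts per kilobase for Mcm6 to 4396 for Mcm4 in Df/+Bl6. In +129/+Bl6 they spanned 1.65-fold, from 1453 for Mcm6 to 2399 for Mcm2. Per kilobase of coding sequence the span was 1.27-fold in Df/+Bl6 and 1.25-fold in +129/+Bl6. Which subunit was lowest depended on the length used. Per kilobase of coding sequence Mcm6 was the lowest in +129/+Bl6, at 2568, but Mcm3 was the lowest in Df/+Bl6, at 4808 against 5180 for Mcm6. Mcm10 had 533 counts per kilobase of transcript in Df/+Bl6 and 257 in +129/+Bl6, and Mcm8 had 187 and 84.3. From the lowest to the highest of the 8 genes, the level per kilobase of transcript spanned 23.5-fold in Df/+Bl6 and 28.5-fold in +129/+Bl6, while their log2 ratios differed by less than 0.5 between any pair.

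Mcm3, Mcm5 and Mcm6 were listed in both allele tables. In the 129S5 table these 3 of the 8 genes were listed, all higher in Df/+Bl6, against 2.54% of the 5271 genes tested for that allele. In the C57BL/6J table the same 3 genes were listed, again all higher, against 3.16% of 5727. The other 5 genes, Mcm2, Mcm4, Mcm7, Mcm8 and Mcm10, are in neither allele table, and whether they were tested there is not known. The tables come from the same 7 lines and were normalized separately, so levels are not compared between alleles. The allele means also fall short of the combined means, to an extent that differs by gene. In Df/+Bl6, Mcm5 had allele means of 626 and 1260 against 12139 combined, and Mcm6 had 2044 and 4276 against 12758. What share of the reads the allele values rest on was not tested. How completely reads of the MCM genes were separated by allele was not tested. In the interval that brackets the deletion, the listed genes had a median log2 ratio of -7.69 in the 129S5 table. In the C57BL/6J table it was -0.87. Those values come from the same assignment of reads.

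The 129S5 allele of Mcm3 had 1329 mean normalized counts in Df/+Bl6 and 793 in +129/+Bl6, a log2 ratio of 0.74. The C57BL/6J allele of Mcm3 had 3010 against 1773, a log2 ratio of 0.76. For Mcm5 the 129S5 allele had 626 against 358, a log2 ratio of 0.81. The C57BL/6J allele of Mcm5 had 1260 against 685, a log2 ratio of 0.88. For Mcm6 the 129S5 allele had 2044 against 970, a log2 ratio of 1.08. The C57BL/6J allele of Mcm6 had 4276 against 2099, a log2 ratio of 1.03. The log2 ratio of the 129S5 allele minus that of the C57BL/6J allele was -0.02 for Mcm3, -0.07 for Mcm5 and 0.05 for Mcm6. For each of the 3 genes the alleles were higher in the same genotype. The difference between alleles was not tested, since no value per line was used. In both tables Mcm3 had the smallest of the 3 log2 ratios and Mcm6 the largest, which is also their order in the combined table. The combined counts are described as including the reads of both alleles, so this shared order is not independent.

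**Figure D3:**
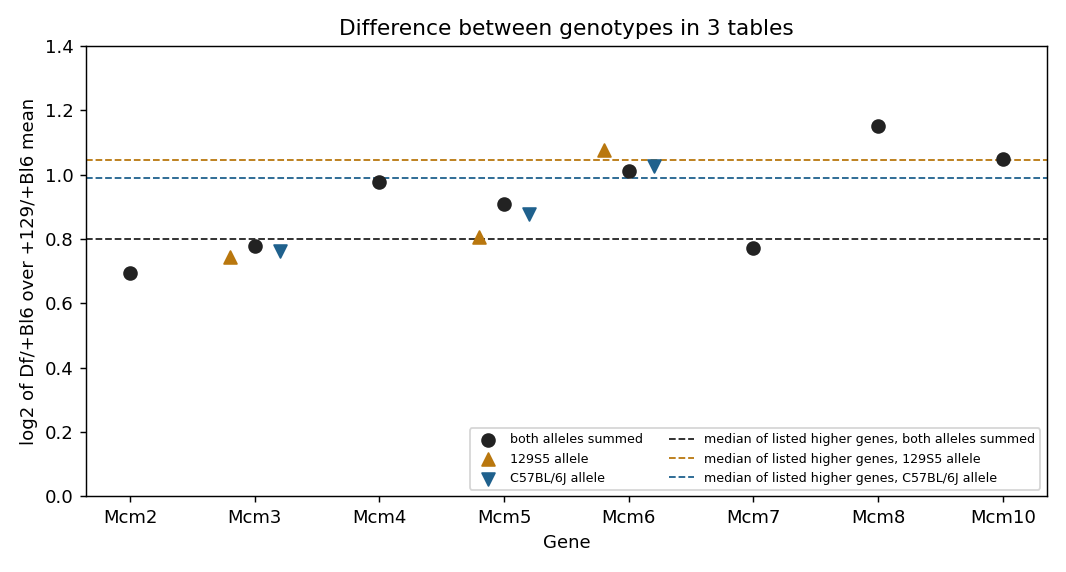
The log2 ratio of the Df/+Bl6 mean over the +129/+Bl6 mean for each MCM gene with both alleles summed (black circles) and, for Mcm3, Mcm5 and Mcm6, for the 129S5 allele (upward triangles) and the C57BL/6J allele (downward triangles). Dashed lines are the medians of the genes listed as higher in the same table, 0.80 combined, 1.05 for 129S5 and 0.99 for C57BL/6J. All points are above 0, from 0.69 to 1.15.

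Not every relative of the family was listed. Mcm9, the partner of Mcm8, Mcmbp, which binds free MCM subunits, and Mcm3ap, whose product can acetylate Mcm3, were tested and none was listed. Over all tested genes, 8.67% were listed in either direction. Mcmdc2, a meiotic relative, was not tested.

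The MCM genes belong to a larger set of replication genes that were listed in the same direction. Over the lists of origin licensing, CMG assembly and origin firing, and replisome progression, 48 genes were tested, 36 were listed as higher in Df/+Bl6, 0 as lower and 12 were not listed, beside 5.13% listed as higher over all genes. Of the 9 genes of the licensing list, which holds the loaders of the ring and Gmnn, the inhibitor of Cdt1, 7 were listed as higher with a median log2 ratio of 0.79, and Orc3 and Cdt1 were not listed. Cdc6, the ATPase that brings the ring to the origin, had the largest log2 ratio of the list, at 1.30, with means of 2332 in Df/+Bl6 and 944 in +129/+Bl6. The smallest was 0.61, for Orc5, a subunit of the origin recognition complex, with 1697 against 1111.

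Of the 11 tested genes that turn the loaded ring into an active helicase, 9 were listed as higher with a median log2 ratio of 1.01. Cdc7, the kinase that phosphorylates the ring, had the largest log2 ratio, 1.59, with means of 1311 and 435. Mtbp, a partner of the origin-firing factor Ticrr, had the smallest, 0.67, with 2626 against 1646. The components that join the ring to make the CMG helicase were named after their values were seen. Cdc45 had a log2 ratio of 1.01, Gins1 one of 1.01 and Gins3 one of 1.09, while Gins2 and Gins4 were tested and not listed. These ratios lie within the range of the MCM genes.

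Of the 28 tested genes that act at the fork, 20 were listed as higher, with a median log2 ratio of 0.79. Pola1, the catalytic subunit of the polymerase that starts new strands, had the largest log2 ratio, 1.49, with means of 4311 and 1536. Pold1, the catalytic subunit of polymerase delta, had the smallest, 0.55, with 3760 against 2567. Not listed were Pola2, Pold2, Pole3, Pole4, Rfc2, Rfc3, Rpa3 and Fen1.

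The E2F and pocket protein genes, whose products control MCM transcription, were listed in part. Of 13 tested, 3 (23.1%) were listed as higher, beside 5.13% over all genes, and 10 were not listed. E2f7, a repressor of the family that is itself an E2F target, had a log2 ratio of 1.04 with means of 3701 and 1796. Rbl1, which encodes the pocket protein p107, had 0.91 with 2715 against 1442. The activators E2f1, E2f2 and E2f3 were tested and not listed.

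All 20 genes of the G2 and M phase list were listed as higher in Df/+Bl6, beside 5.13% over all genes, with a median log2 ratio of 1.11, above the 0.84 of the hexamer genes. Cenpf, a kinetochore protein, had the largest log2 ratio, 1.91, with means of 8564 and 2283. Cdc20, an activator of the anaphase-promoting complex, had the smallest, 0.60, with 8820 against 5811. The difference between the medians of these lists was not tested. In bulk RNA more cycling cells and more MCM RNA per cell cannot be told apart.

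**Figure D4:**
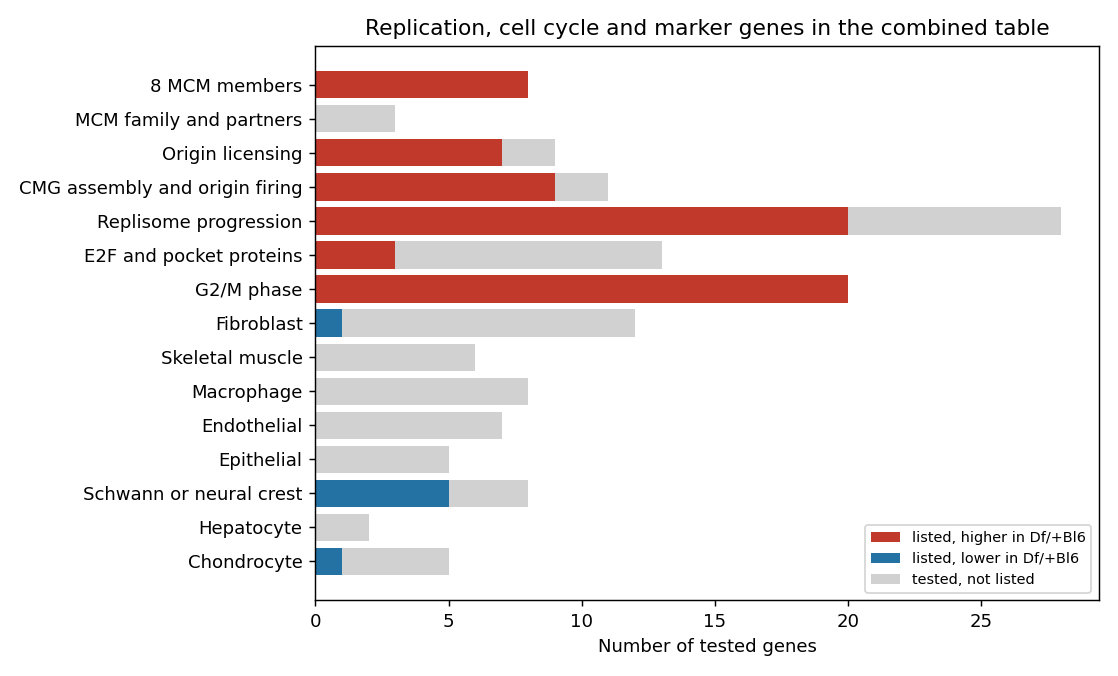
Number of tested genes of each list that were listed as higher in Df/+Bl6 (red), listed as lower (blue) or tested and not listed (grey) in the combined table. The bars of the 8 MCM genes and of the 20 genes of G2 and M phase are wholly red, and among the marker lists of cell types only the fibroblast, Schwann or neural crest and chondrocyte bars hold listed genes, all blue.

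Markers of fibroblasts and of other cell types were looked up, but most have no mean per genotype here. The normalized counts in columns without line names were not used, so the label of the cells was not checked against marker levels. Of 12 fibroblast markers, all 12 were tested and 11 were not listed, beside 8.67% listed in either direction over all genes. Fn1, which encodes fibronectin, was listed as lower in Df/+Bl6, with a log2 ratio of -0.69 and means of 2121647 and 3418220. None of the 6 tested skeletal muscle, 8 macrophage, 7 endothelial, 5 epithelial or 2 hepatocyte markers was listed, beside the same 8.67%. Among Schwann or neural crest markers, 5 of 8 were listed, all lower in Df/+Bl6, beside 3.54% listed as lower over all genes, with log2 ratios from -2.32 for S100b to -1.09 for Erbb3. S100b had mean normalized counts of 123 in Df/+Bl6 and 615 in +129/+Bl6, and Erbb3 had 132 and 282. Of 5 tested chondrocyte markers, Comp alone was listed, beside the same 8.67%. It was lower in Df/+Bl6, at 420 against 2422, a log2 ratio of -2.53. The part of these cells in the MCM values was not tested.

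The genes beside the MCM genes were also looked up. For each MCM gene the nearest protein-coding gene on either side, and any that overlap it, were taken from RefSeq, a rule chosen after the values of the MCM genes were seen. Of the 17 neighbours, 14 were tested and 1 was listed, against 8.67% listed in either direction over all genes. That gene, Ube2v2, lies 29378 bases from Mcm4, with means of 3476 and 2292 and a log2 ratio of 0.60. Prkdc, which encodes the catalytic subunit of DNA-dependent protein kinase, starts 43 bases from Mcm4 on the opposite strand and was not listed. Trmt6, a subunit of a tRNA methyltransferase, starts 82 bases from Mcm8 on the opposite strand and was also not listed. Ap4m1 overlaps Mcm7 on the opposite strand and was not listed. The libraries were stranded, but whether strand was used in counting is not given in the sources used here, so how reads in that overlap were treated is not known.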

How the data were processed

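Stranded polyA+ libraries of 7 primary MEF lines were sequenced from both ends. The authors aligned reads with GSNAP, without mismatches, to C57BL/6J (GRCm38) and 129S5 transcriptomes, taking the longest transcript per gene. The authors counted uniquely best-placed pairs that fell on a single gene, dropped genes with few reads on each allele where this held across genotypes, and ran DESeq. The deposited signal values are mean normalized counts per genotype, scaled by the authors with DESeq's size factors, in 3 tables of genes past an FDR of 0.05, and each table was normalized separately. The authors' p-value columns were read only to check this filter and to obtain the numbers of genes tested. Their fold changes, log2 fold changes and p-values are not printed, and log2 ratios were recomputed from the means.

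A further file holds 9 columns of normalized counts without line names, which were not used. Only its gene identifiers were, as the list of tested genes. The limma fit planned on lines therefore could not be made, and depth per line is unknown.

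The MCM genes and all lists were chosen with earlier results of these data known. In each replication or cell cycle list the listed genes with the largest and smallest log2 ratio are named, and others were chosen after their values were seen. Symbols and lengths come from GENCODE vM1 (NCBI37), and positions and promoters from RefSeq (GRCm38.p6). Mcm8ip and Ticrr were not matched to an identifier. Alternatives were pseudocounts, centring, leaving out genes, length scales and motif settings. The log2 ratio and the motif search were tested on simulated data. Python 3.11.15, numpy 2.4.6, pandas 2.3.3 and matplotlib 3.10.9 were used.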

Additional observations from a re-analysis of the deposited data

How the results depend on the processing

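No recalculation reversed a log2 ratio, but among the alternatives only centring could have done so. Pseudocounts and leaving out genes cannot change the sign when every ratio is above 0. With centring the lowest log2 ratio, that of Mcm2, fell from 0.69 to 0.09. Of the recalculated summaries, 13 of 22 moved by less than 0.1 on the log2 scale or, for counts, by less than 1.5 times. Leaving out one hexamer gene at a time gave medians from 0.78 to 0.91 against 0.84. Centring on the median of the listed genes, which subtracts 0.61 in the combined table, lowered the median log2 ratio of the hexamer genes to 0.24, that of the 129S5 allele from 0.81 to 0.17 and that of the C57BL/6J allele from 0.88 to 0.19. These medians are taken over listed genes only, since unlisted genes have no mean per genotype here. A pseudocount of 100 lowered the 129S5 median to 0.68 and the log2 ratio of Mcm8 from 1.15 to 0.93, below Mcm6, Mcm10 and Mcm4. The span of hexamer levels was 1.27 (Df/+Bl6) and 1.25 (+129/+Bl6) per kilobase of coding sequence, and 1.35 and 1.28 without length correction. The number of genes with an E2F-type word was 3 before the start. A minimum mean of 1000 left out Mcm8. Leaving out lines was not run, and no paired analysis was possible because the tables hold no value per line. Dispersion between lines, and hence the precision of every mean, is unknown.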
